A study of Mus musculus with 8 samples.

Results

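Voltage-gated sodium and calcium channel genes were described through the open chromatin in and around them. The members were the autosomal protein-coding genes of the GENCODE M21 annotation of mm10 whose symbols begin Cacna, Cacnb, Cacng or Scn followed by a digit, 39 of 20807 autosomal protein-coding genes. Cacng6, Cacng7 and Cacng8 lie on chromosome 7 ahead of position 3601188, where the first peak of any list on that chromosome starts, in a stretch that holds 8 protein-coding genes. They were not analysed here, which left 36 genes. The window of each gene ran from 5 kb upstream of it to 1 kb downstream. Every peak with any part inside that window was counted for the gene, wherever its summit lay. By this rule the channel genes held 532 of 152984 wild-type peaks, 380 of 106974 heterozygous peaks and 607 of 174407 mutant peaks.

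Chromatin was profiled by ATAC-seq, in which the transposase Tn5 inserts sequencing adapters into accessible DNA, in granule neuron progenitors (GNPs) purified by Percoll gradient from mouse cerebella at postnatal day 7. The strain is given in the labels as C56Bl6/J, and all groups carry the conditional Chd7 allele: wild-type (WT) [Chd7 f/f] with no Cre in 3 libraries, heterozygous (het) [Atoh1-Cre::Chd7 f/+] in 2 libraries and homozygous mutant [Atoh1-Cre::Chd7 f/f] in 3 libraries. Chd7 encodes a chromatin remodeller of the CHD family. Atoh1-Cre acts in the granule lineage, and the study describes Chd7 protein that remains in the posterior lobe, probably through less efficient recombination there, so the mutant preparation can still hold cells with Chd7. The study describes the WT and mutant replicates as technical, and 1 peak list was deposited for each genotype, called on its pooled libraries. No value of a single library was used, so no replicate error can be given and no test between genotypes was possible.

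The lists differ in depth and settings. After duplicate filtering the WT list rested on 50394313 tags, the mutant list on 51030229 and the het list on 30923002. The tag size was 107 bp in WT and het and 76 bp in mutant, a difference that cannot be told apart from genotype. The het list was called with tags shifted and extended to 200 bp, against a modelled fragment of 90 bp in WT and 88 bp in mutant, so het heights are given beside the others without a ratio. A height is the number of overlapping fragments at the summit for each 1000000 filtered tags, written RPM. The start-site peak of Chd7 itself reached 1.13 RPM in WT, 2.23 in het and 1.02 in mutant, which carries no information on the deletion of exons within the gene. Of 8 GNP markers, 7 had a start-site peak in WT, 7 in het and 8 in mutant. Over all autosomal protein-coding genes the shares were 70.8%, 68.6% and 71.6%, so counts from such short lists cannot tell which cells were present. Markers of other cell types were also open at their start sites in the WT list, with 3 of 4 for Purkinje cells, 4 of 4 for astrocytes and Bergmann glia, 1 of 4 for oligodendrocytes, 2 of 4 for microglia, 3 of 3 for endothelium and 3 of 4 for skeletal muscle. In the mutant list the counts were the same except for microglia, with 1 of 4. The part of such cells, or of their open chromatin, in the values of the channel genes was not tested.

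Voltage-gated calcium channels are built around a pore-forming alpha1 subunit, which sets the channel type, with an auxiliary beta subunit in the cytoplasm and an alpha2delta subunit outside the membrane. Some gamma proteins accompany muscle calcium channels, and others are the TARPs, which carry AMPA receptors to the synapse. Voltage-gated sodium channels pair a pore-forming alpha subunit, which starts and propagates the action potential, with single-pass beta subunits that alter gating and adhere to neighbouring cells. Granule neurons acquire these channels as they leave the cell cycle, extend parallel fibres and begin to fire, and mouse mutants of Cacna1a, Cacna2d2, Cacnb4 and Cacng2 are ataxic.

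Most of the accessible sites of the channel genes were intronic. Of the 532 WT peaks, 407 (76.5%) lay in introns, 77 (14.5%) within 1 kb of an annotated start site, 27 in exons, 16 upstream and 5 downstream. Over the peaks of all autosomal protein-coding genes, 25.7% lay at a start site. The channel genes are long, with a median length of 111 kb, and over the 36 genes the number of WT peaks was higher in longer genes (Spearman's rho = 0.857, n = 36 genes that share one library pool, given as a description). Their median WT peak was 219.5 bp wide and 0.337 RPM high, against 232 bp and 0.377 RPM over all genes. Among the WT peaks of channel genes, 24 also lay within 1 kb of a start site of another gene.

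Per length, Cacna1g and Cacna1s were among the genes with the most WT peaks, and Scn7a, Scn10a and Scn11a held the fewest. Cacna1g, which encodes a T-type pore found in Purkinje cells and deep nuclei, had 18.1 WT peaks per 100 kb, and Cacna1s, the pore of the skeletal muscle channel, had 16.4. Of the 12 WT peaks of Cacna1s, 4 lay within 1 kb of a start site of another gene, against 0 of 13 for Cacna1g. At the other end stood 3 sodium channel genes, with 2.55 for Scn7a, 3.42 for Scn10a and 3.86 for Scn11a. Scn10a and Scn11a are known from pain-sensing neurons of the dorsal root ganglion. The median over the 36 genes was 9.87 WT peaks per 100 kb, against 9.04 over the 17015 genes with a WT peak, and among genes of at least 100 kb it was 8.52 in 20 channel genes and 7.54 in 2356 genes.

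**Figure D1:**
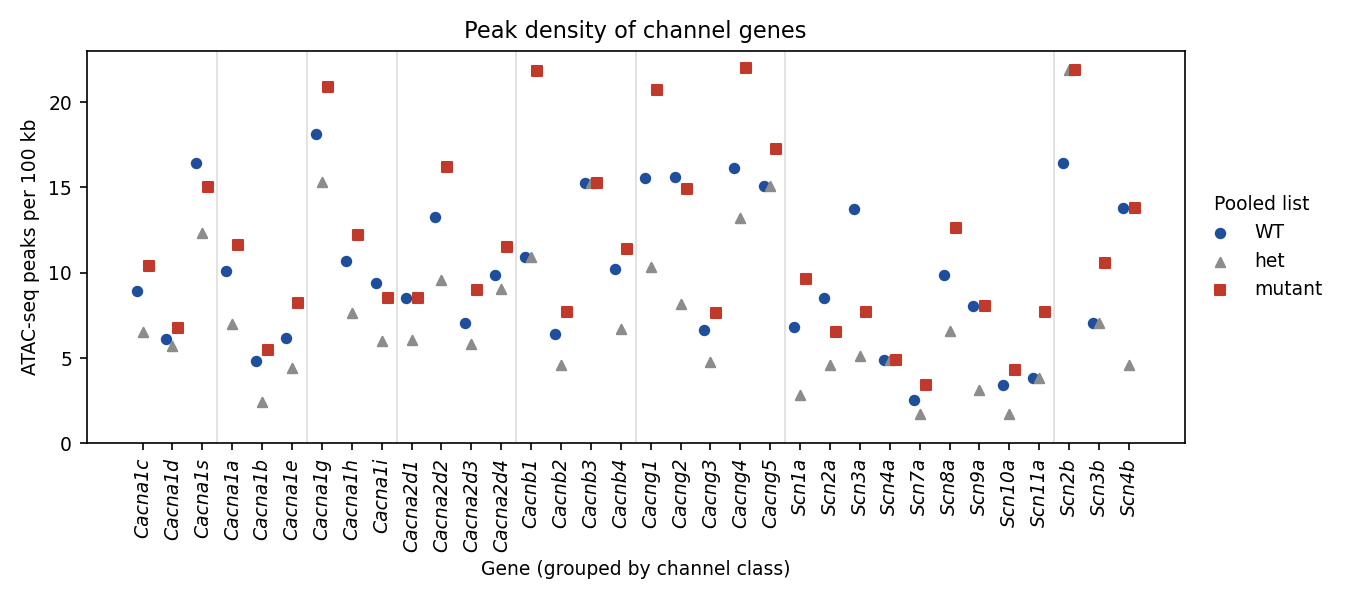
Peaks per 100 kb of gene window for channel genes, grouped by class, with a circle for WT, a triangle for het and a square for mutant, each from 1 pooled list. Cacna1g, at 18.1, and Cacna1s, at 16.4, stand high in WT, and Scn7a, Scn10a and Scn11a stand lowest.

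Nearly all channel genes had an open start site in WT, het and mutant alike. A peak summit within 1 kb of an annotated start site was found for 32 of the 36 genes in WT (70.8% over all autosomal protein-coding genes), for 31 in het (68.6%) and for 32 in mutant (71.6%). The genes without one in any list were Cacna1i, a T-type pore gene, Cacng1, the gamma subunit of the muscle calcium channel, Scn4a, the skeletal muscle sodium pore, and Scn10a. When only the 5′ end of the gene was counted, the number was 26 in WT, 23 in het and 26 in mutant. Cacna1a, Cacna1c, Cacna1d, Cacna2d4 and Cacnb2 were among the genes open in WT only at a start site inside the gene.

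The tallest start sites belonged to a neuronal sodium channel pair and to subunits of the presynaptic calcium channel. Scn2a, the sodium channel pore of young axons, reached 1.55 RPM in WT, 3.56 in het and 1.74 in mutant. Scn3b, a sodium beta subunit, reached 1.41, 3.85 and 1.31. Cacna2d1, an alpha2delta subunit, reached 1.37 in WT, 2.94 in het and 1.59 in mutant, at a start site 90.2 kb inside the gene. By −log10 q the peaks of these 3 genes ranked between 95.4% and 99.8% of their lists. Cacnb4, the main beta subunit of cerebellar calcium channels, had 1.13 RPM in WT, 3.56 in het and 1.21 in mutant. Cacna1b, the N-type pore, had 1.09 in WT and 1.08 in mutant. Pores of mature granule cells and Purkinje cells were lower: Scn8a had 0.814 RPM in WT and 0.862 in mutant, and Scn1a had 0.695 and 0.705, at a start 30.8 kb inside the gene that lies 501 bp from a start site of another gene. For Cacna1a (P/Q-type), the tallest was an annotated internal start 251 kb from the 5′ end, close to the 3′ end of the gene (chr8:84639093-84639784), with 0.873 RPM in WT and 1.14 in mutant (ratio 1.30, 0.865 to 1.97). Its start-site regions nearer the 5′ end had 0.456 and 0.353 at chr8:84414272-84414890 (ratio 0.773, 0.393 to 1.497) and 0.437 and 0.353 at chr8:84415367-84416011 (ratio 0.808, 0.408 to 1.58). All 3 intervals hold 1.

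**Figure D2:**
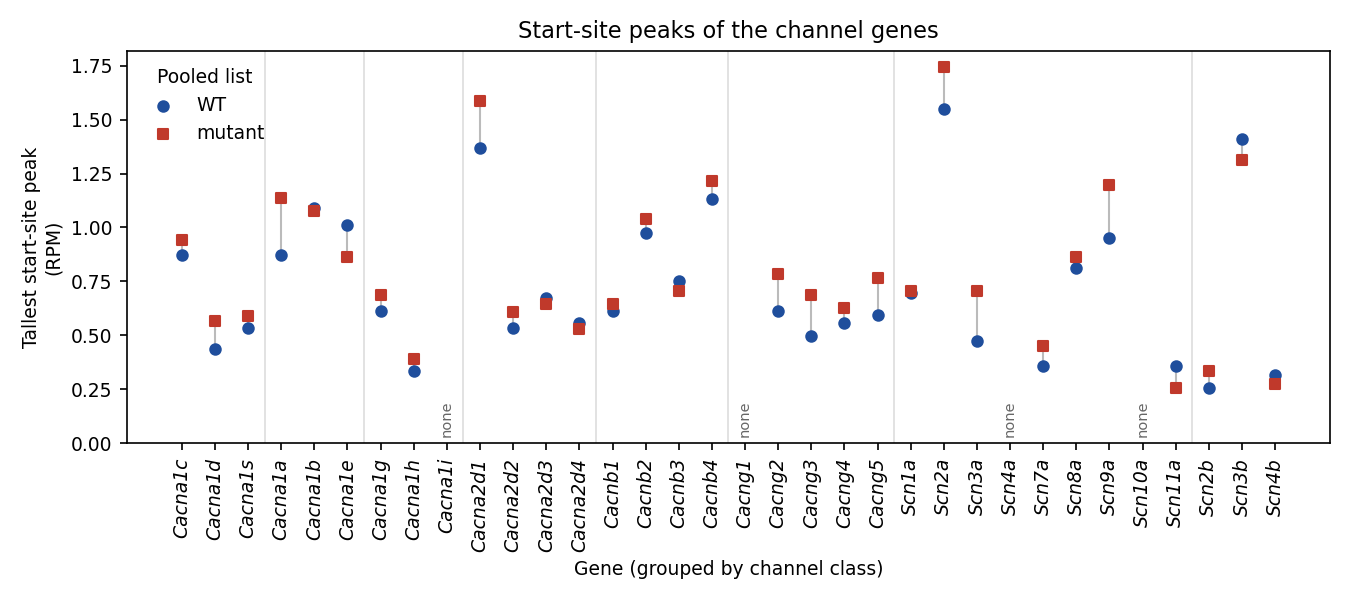
Height of the tallest start-site peak of channel genes, in RPM, for WT and mutant, with genes without a peak marked as none. Scn2a, Scn3b and Cacna2d1 are the tallest, and Cacna1i, Cacng1, Scn4a and Scn10a have no start-site peak in any list.

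RefSeq promoters (GRCm38.p6, 250 bases before to 50 after the start) were matched by symbol for 29 of the 39 members, with 40 entries. Of the 37 entries of analysed genes, 25 overlapped a WT peak, 24 a het peak and 24 a mutant peak. Those with a WT peak had a median GC content of 66.3% and a median of 26 CpG dinucleotides, and the 12 without had 55.5% and 7. Over all 32851 RefSeq promoters, open or not, the medians were 52.7% and 7. How many of all promoters overlap a peak was not counted, so nothing particular to channel genes is read from these values. Several genes had more than 1 start. Cacna1c, the main L-type pore of neurons and heart, was open at its middle RefSeq start (chr6:119108446-119108745, minus strand, GC content 81.3%), with 0.556 RPM in WT, 0.841 in het and 0.666 in mutant. It had no peak in any list at its outer starts, both with a GC content of 51.3%. Cacna1d, the other neuronal L-type pore, was open at a start with a GC content of 87.3% and had no peak at one with 40.3%. Cacnb1, Cacnb3, Cacng5 and Scn8a likewise had a peak at one RefSeq start and none at the other in any list. Both Scn2a starts were open, although both are poor in GC, and the downstream one was the taller.

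The Scn2a and Cacna2d1 promoters are shown because their start sites are among the tallest of the set and because they differ in base composition, with a GC content of 33.0% and 47.7% for the upstream and downstream Scn2a starts and 80.0% for the gene's 5′ end of Cacna2d1. Sequences are from RefSeq (GRCm38.p6), plus strand, and capitals mark matches on either strand to the E-boxes CAGATG and CAGCTG or the Zic core CCTGCTG, of which these 3 windows hold none. Of all 32851 RefSeq promoters of this length, 17.2% hold CAGATG, 16.3% CAGCTG and 10.5% CCTGCTG.
Scn2a, upstream start, chr2:65620519-65620818: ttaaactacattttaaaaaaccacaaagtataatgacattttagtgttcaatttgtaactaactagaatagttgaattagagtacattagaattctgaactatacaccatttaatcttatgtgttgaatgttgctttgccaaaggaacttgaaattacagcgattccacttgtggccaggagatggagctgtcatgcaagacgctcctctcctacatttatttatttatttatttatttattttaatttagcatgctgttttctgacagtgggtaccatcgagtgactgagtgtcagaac
Scn2a, downstream start, chr2:65668436-65668735: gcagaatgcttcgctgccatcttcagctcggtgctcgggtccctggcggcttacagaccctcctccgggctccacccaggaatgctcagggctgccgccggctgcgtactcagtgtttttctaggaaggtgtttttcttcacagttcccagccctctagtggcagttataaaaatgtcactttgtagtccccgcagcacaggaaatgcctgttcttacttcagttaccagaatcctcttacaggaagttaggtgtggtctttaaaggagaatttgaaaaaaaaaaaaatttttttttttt
Cacna2d1, 5′ end, chr5:15934441-15934740: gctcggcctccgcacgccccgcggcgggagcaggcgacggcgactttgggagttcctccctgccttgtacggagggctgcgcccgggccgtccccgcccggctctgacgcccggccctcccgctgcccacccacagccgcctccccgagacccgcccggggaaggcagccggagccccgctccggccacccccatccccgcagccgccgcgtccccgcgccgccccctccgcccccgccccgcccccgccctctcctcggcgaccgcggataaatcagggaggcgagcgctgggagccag
The upstream Scn2a start had 0.437 RPM in WT, 0.808 in het and 0.568 in mutant, whereas the downstream start had 1.55, 3.56 and 1.74. The 5′ end of Cacna2d1 had 1.13, 2.59 and 1.20. In each case the mutant peak over the promoter was slightly taller than the WT peak. The joined region at the upstream Scn2a start, which extends past the promoter (chr2:65620627-65621669), had the opposite order, with 0.754 RPM in WT and 0.627 in mutant (ratio 0.832, 0.503 to 1.37), an interval that holds 1.

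Sodium channel genes are classical targets of the repressor REST, which binds a long element and silences neuronal genes in other tissues. Written as TTCAGCACC, any 2 bases, GGACAG, the element was found in the windows of Cacna1h, Cacna2d3, Scn2a and, at 2 places, Scn10a, and a looser form without the first 2 letters was found also in Cacna1a, Cacna1b and Scn3b. Both strands were searched, and the looser form includes every match to the longer one. Among all RefSeq promoters, 0.0122% hold the longer form and 0.0365% the looser form. Those are shares of short promoters, whereas the search covered whole gene windows, so the 2 cannot be set against each other. The rate over the windows of all genes was not counted, so nothing particular to channel genes is read from the matches. The elements are shown for the 3 genes where they lie near a start site (mm10, written in the direction of the element and in capitals throughout, since the whole run is the match).
Scn2a, chr2:65619964-65619980, plus strand: TTCAGCACCACGGACAG
Cacna1b, chr2:24762085-24762099, plus strand: CAGCACCACGGACAG
Scn3b, chr9:40269744-40269758, minus strand: CAGCACCACGGACAG
The Scn2a element lies at −807 bp from the gene's 5′ end and was under no peak, with the nearest 656 bp away in WT, 651 bp in het and 647 bp in mutant. The Cacna1b element was under a peak in each list, of 1.01 RPM in WT, 2.72 in het and 1.10 in mutant. Likewise the Scn3b element was under the start-site peak given above. The elements of Cacna2d3 and, at 1 of the 2 places, Scn10a lay under a peak in the mutant list alone, of 0.216 and 0.176 RPM (11 and 9 fragments). The remaining elements were under no peak. A match is a run of letters and not a measured binding site.

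The question of the design was what loss of Chd7 does to accessibility. By overlap of at least 1 bp, 114 of the 532 WT peaks of channel genes had no mutant peak (21.4%, Wilson 95% interval 18.2 to 25.1), against 18.7% over all genes. Conversely, 166 of 607 mutant peaks had no WT peak (27.3%, 24.0 to 31.0), against 26.9% over all genes. A het peak overlapped 354 WT peaks (66.5%, 62.4 to 70.4, against 67.5% over all genes) and 373 mutant peaks (61.4%, 57.5 to 65.2, against 62.7%). These intervals cover counting error only, and the share over all genes lay inside each of them. With all peaks counted, the channel genes as a set were thus near the background share in both directions. Among WT peaks with −log10 q of 5 or more, 24 of 345 had no mutant peak (6.96%, 4.72 to 10.1). The share over all genes, 4.66%, lay just below that interval. Among mutant peaks at that limit, 38 of 394 had no WT peak (9.64%, 7.11 to 13.0, against 10.02% over all genes).

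Peaks found in 1 list were weak. Of WT peaks with −log10 q under 5, 90 of 187 (48.1%) had no mutant peak, from 5 to 10 it was 22 of 146 (15.1%), and at 10 or more 2 of 199 (1.01%, 0.276 to 3.59). The shares over all genes in the same strata were 45.7%, 11.7% and 0.307%. The 2 strong exceptions were in Cacna1e and Cacna2d1. The WT peak of Cacna2d1 with −log10 q of 16.5, at chr5:16166998-16167200, had a mutant peak within 300 bp. At start sites 6 of 77 WT peaks had no mutant peak (7.79%), and in introns 99 of 407 (24.3%). Neither share by location was computed over all genes, so no trait of channel genes is read from their difference.

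After peaks of the 3 lists closer than 300 bp were joined, the channel genes held 625 regions, and the split by list was near that of all genes except for regions found in WT and het alone. All 3 lists shared 312 regions (49.9%, against 51.3% of the 97355 regions of all genes). The mutant list alone held 111 (17.8% against 17.9%), the WT list alone 78 (12.5% against 10.9%), and WT with mutant but not het 78 (12.5% against 12.6%). Regions found in WT and het but not in mutant numbered 17 (2.72%, 1.71 to 4.31, against 1.49%), with 4 in Cacna2d3, 2 each in Cacna1e, Cacnb2, Cacnb4 and Scn9a, and 1 each in Cacna1d, Cacna2d2, Cacng2, Cacng5 and Scn3a. The share over all genes lay below this interval, which does not cover the choice of this pattern among all of them. Regions in het and mutant but not in WT also numbered 17 (2.72% against 2.94%), and the het list alone held 12 (1.92%, 1.10 to 3.33, against 2.84%).

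Among the classes, sodium alpha genes had the highest share of peaks in 1 list, with 33 of 97 WT peaks unmatched in mutant (34.0%, 25.4 to 43.9, against 18.7% over all genes) and 37 of 103 mutant peaks unmatched in WT (35.9%, 27.3 to 45.5, against 26.9%). Both intervals lie above the share over all genes. In the calcium channel classes, the unmatched share of WT peaks ran from 16.7% for alpha2delta (21 of 126) to 25.8% for T-type pores (8 of 31), and none of the 12 WT peaks of sodium beta genes lacked one (0%, up to 24.2%). The WT peaks of sodium alpha genes were also weaker: 42.3% had −log10 q under 5, against 34.1% over all genes, and 27 of the 33 unshared WT peaks fell there. Of the 41 WT peaks under 5, 27 had no mutant peak, against 12824 of 28040 over all genes. Of the 46 mutant peaks under 5, 33 had no WT peak, against 19029 of 31545. Among the WT peaks of sodium alpha genes at 5 or more, 6 of 56 had no mutant peak (10.7%), against 4.66% over all genes. In the other direction, 4 of 57 mutant peaks at 5 or more had no WT peak (7.02%), against 10.02% over all genes. Peak strength moves with the result, and its part in it was not tested.

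Within the sodium alpha genes, by count and not by share, unmatched WT peaks were most numerous in Scn9a and Scn3a and unmatched mutant peaks in Scn9a and Scn1a. Scn9a, a sodium pore of sensory and sympathetic neurons, lacked a mutant peak at 9 of 13 WT peaks and a WT peak at 9 of 13 mutant peaks. Scn3a, the sodium pore of the embryonic brain, had 9 of 16 WT and 2 of 9 mutant peaks unmatched. For Scn1a it was 3 of 12 WT and 8 of 17 mutant peaks, and for Scn2a 5 of 13 and 2 of 10. These 4 genes lie in one cluster on chromosome 2. All 9 unshared WT peaks of Scn3a stood between 0.159 and 0.278 RPM, whereas its tall regions were present in both lists, such as chr2:65490495-65490852 with 0.833 RPM in WT, 1.62 in het and 0.725 in mutant. Scn8a, the sodium pore of nodes and of cerebellar neurons, had 3 of 18 WT and 6 of 23 mutant peaks unmatched. Scn4a, Scn7a, Scn10a and Scn11a held between 2 and 4 WT peaks each.

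**Figure D3:**
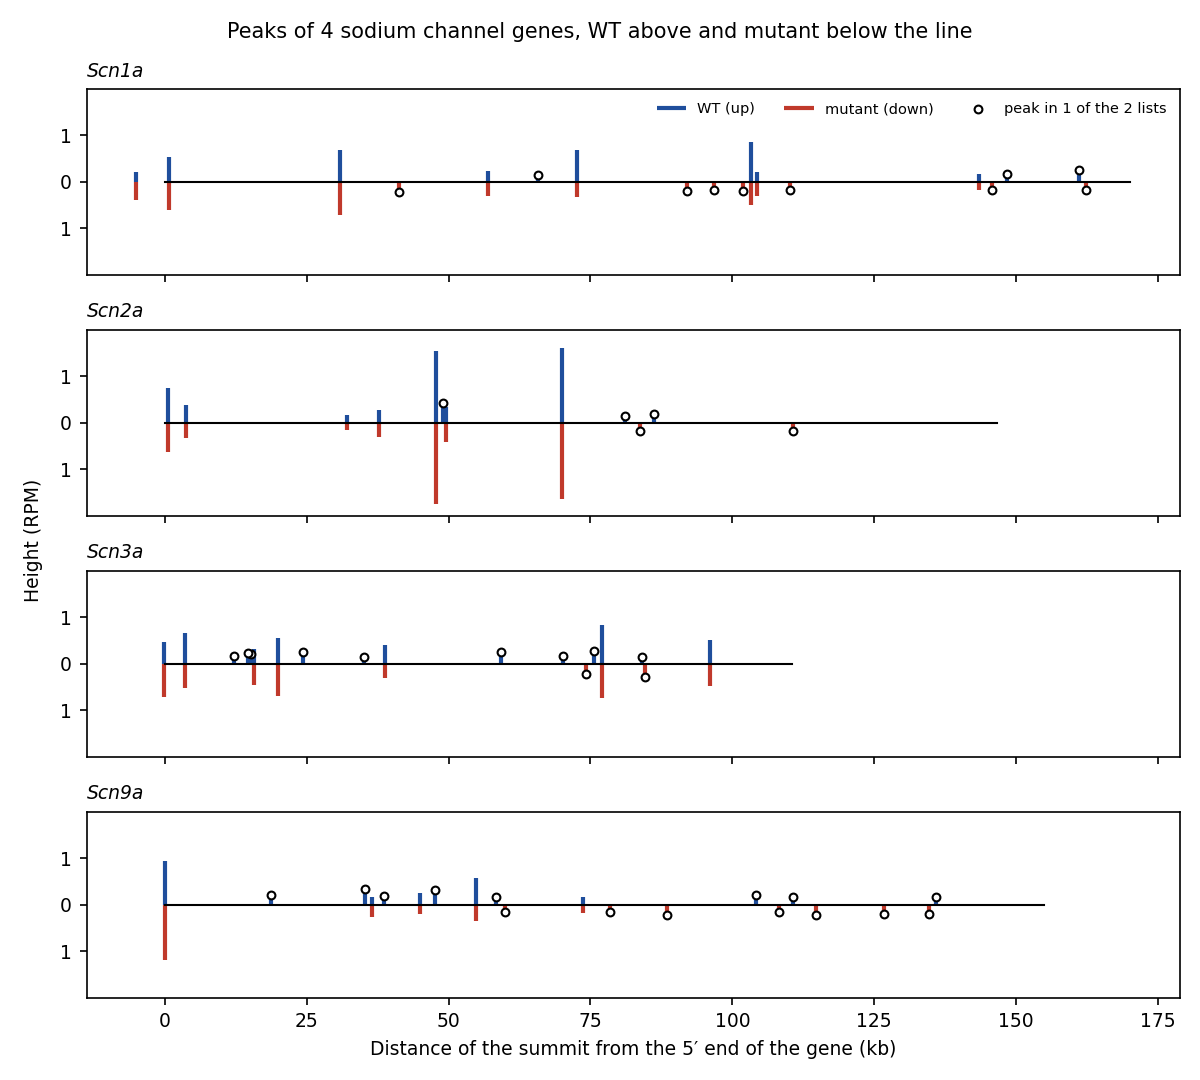
Peaks along Scn1a, Scn2a, Scn3a and Scn9a, by distance from the 5′ end in kb, with WT heights drawn upward and mutant heights downward in RPM, and open circles for regions with a peak in 1 of the 2 lists. The unshared peaks are low, and the tall peaks of Scn2a and the start sites appear in both lists.

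Heights were compared over the 390 regions of channel genes that held both a WT and a mutant peak. The median log2 ratio of mutant to WT was 0.08 (95% interval over regions 0.02 to 0.11), and it was 0.07 over the 62275 shared regions of all genes, so the channel genes sat at the offset of the whole table. At least 1.5-fold lower in mutant were 17 regions (4.36%, against 2.97% over all genes), a number that was 7 when fold enrichment replaced pileup. At least 1.5-fold higher were 24 (6.15%, against 6.76%). Among the 239 regions with −log10 q of 10 or more in WT or mutant, 11 were lower (4.60%, against 2.92%) and 18 higher (7.53%, against 7.52%). At start sites, 1 of 59 regions was lower, that of Scn11a (1.69%, against 0.950% over all genes), and 0 were higher (against 2.73%). Here channel regions were placed by the start sites of their own gene and those of all genes by the nearest start of any gene. The regions past 1.5-fold rest mostly on fewer than 40 fragments, so each ratio is given with an exact 95% interval from the 2 counts. These intervals cover counting error only, and they are too narrow where fragments are copies. The interval lay below 1 in 2 of the 390 regions (0.513%, against 0.36% over all genes) and above 1 in 1 (0.256%, against 0.747%).

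**Figure D4:**
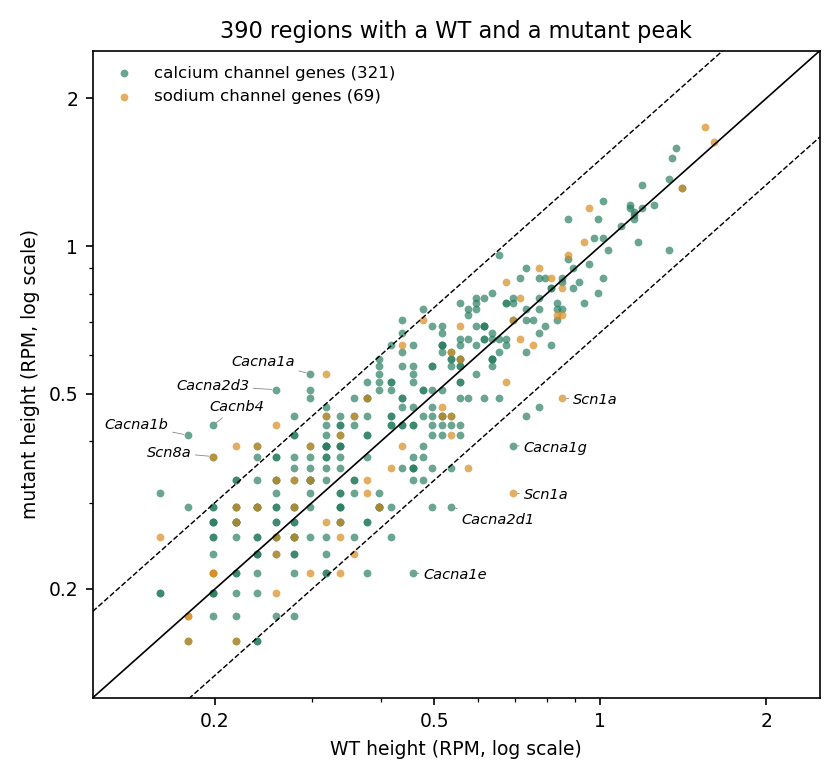
WT against mutant height, in RPM on log axes, for the 390 shared regions of channel genes, coloured by calcium or sodium channel, with a solid line of equal height and dashed lines at 1.5-fold. Most regions lie between the dashed lines, and the regions with the largest falls and rises among the stronger peaks are labelled by gene.

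Both regions with an interval below 1 lie in introns of Scn1a, the sodium channel pore mutated in Dravet syndrome. The region 72.7 kb from the 5′ end (chr2:66368041-66368352) had 0.695 RPM in WT (35 fragments), 0.808 in het (25) and 0.314 in mutant (16). Its ratio of mutant to WT was 0.451 (0.233 to 0.837), and this was the largest fall in the set. The het peak ranked at 62.5% of its list, the WT peak at 87.8% and the mutant peak at 55.0%. The region 103 kb from the 5′ end (chr2:66337430-66337813) had 0.853 RPM in WT (43), 1.10 in het (34) and 0.490 in mutant (25), with a ratio of 0.574 (0.336 to 0.962) and ranks of 91.9%, 72.3% and 75.0%. On the scale of fold enrichment over the local background, the log2 ratios were −1.03 and −0.69. The start sites of Scn1a did not follow, with 0.695 RPM in WT and 0.705 in mutant at the taller (ratio 1.02, 0.620 to 1.67) and 0.536 and 0.607 at the gene's 5′ end (1.13, 0.655 to 1.97).

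Rises and falls past 1.5-fold came from many genes. After the first Scn1a region, the largest falls among the stronger regions were in Cacna1e, the R-type pore (chr1:154850343-154850675, 0.456 RPM in WT, 0.614 in het and 0.216 in mutant, ratio 0.472, 0.208 to 1.01), Cacna2d1 (chr5:16236705-16236896, 0.536 and 0.294, ratio 0.549, 0.271 to 1.07) and Cacna1g (chr11:94454540-94455143, 0.695 and 0.392, ratio 0.564, 0.309 to 1.005). Their intervals reach 1. The largest rise was 7.65 kb into Cacna1b (chr2:24755366-24755620), with 0.179 RPM in WT (9 fragments), 0.420 in het (13) and 0.412 in mutant (21), ratio 2.30 (1.01 to 5.71). Next came intronic regions of Cacnb4 (0.198 and 0.431 RPM, ratio 2.17, 0.987 to 5.14), Cacna2d3 (0.258 and 0.510, ratio 1.98), Scn8a (0.198 and 0.372, ratio 1.88) and Cacna1a (0.298 and 0.549, ratio 1.84). All 10 regions are intronic.

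The sequences below are the 300 bases around the WT summit of the regions whose interval excludes 1 and of the next largest fall, mm10, plus strand, with the same motifs in capitals. E-boxes of the form CAGATG are bound by Atoh1 and related bHLH factors of the granule lineage, CAGCTG by other bHLH factors, and CCTGCTG is the core bound by Zic factors.
Scn1a, 72.7 kb from the 5′ end, lower in mutant, chr2:66368034-66368333: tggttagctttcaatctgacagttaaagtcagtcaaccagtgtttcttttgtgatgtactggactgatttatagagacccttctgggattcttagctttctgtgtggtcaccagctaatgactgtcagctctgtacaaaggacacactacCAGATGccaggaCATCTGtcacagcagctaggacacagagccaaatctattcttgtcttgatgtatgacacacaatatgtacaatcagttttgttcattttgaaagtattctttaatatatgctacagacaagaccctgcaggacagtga
Scn1a, 103 kb from the 5′ end, lower in mutant, chr2:66337454-66337753: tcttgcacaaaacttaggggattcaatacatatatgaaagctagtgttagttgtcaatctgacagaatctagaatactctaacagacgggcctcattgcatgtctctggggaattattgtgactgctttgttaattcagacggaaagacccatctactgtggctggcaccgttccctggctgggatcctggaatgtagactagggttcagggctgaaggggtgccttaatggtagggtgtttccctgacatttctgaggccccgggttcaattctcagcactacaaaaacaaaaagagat
Cacna1e, 34.0 kb from the 5′ end, lower in mutant, chr1:154850362-154850661: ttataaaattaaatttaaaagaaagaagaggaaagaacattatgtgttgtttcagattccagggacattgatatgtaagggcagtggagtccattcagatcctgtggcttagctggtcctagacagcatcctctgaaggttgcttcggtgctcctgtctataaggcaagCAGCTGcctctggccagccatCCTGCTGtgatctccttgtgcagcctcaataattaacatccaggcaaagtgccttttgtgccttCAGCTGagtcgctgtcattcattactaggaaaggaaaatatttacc
Cacna1b, 7.65 kb from the 5′ end, higher in mutant, chr2:24755351-24755650: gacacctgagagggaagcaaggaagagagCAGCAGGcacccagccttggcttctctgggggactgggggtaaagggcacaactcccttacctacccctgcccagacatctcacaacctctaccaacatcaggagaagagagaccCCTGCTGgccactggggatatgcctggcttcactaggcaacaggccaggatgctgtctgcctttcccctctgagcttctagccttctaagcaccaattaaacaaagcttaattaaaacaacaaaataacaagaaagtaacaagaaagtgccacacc
The first Scn1a window holds 2 matches to CAGATG and the second none. The Cacna1e window holds 2 matches to CAGCTG and 1 to the Zic core, and the Cacna1b window 2 to the Zic core.

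Over all shared regions of channel genes, CAGATG was present within the 300 bases in 155 of 390 (39.7%, 35.0 to 44.7), against 33.0% over all genes. Away from start sites the share was 42.3% (140 of 331, 37.1 to 47.7), against 39.3%. For this split, channel regions were placed by the start sites of their own gene and those of all genes by the nearest start of any gene. CAGATG was found in 9 of the 17 regions lower in mutant (52.9%, 31.0 to 73.8) and in 7 of the 24 higher (29.2%, 14.9 to 49.2). Over all genes the shares were 51.8% of 1851 lower and 31.2% of 4211 higher regions, and both lie inside the wide intervals of the channel genes. CAGCTG was present in 32.8% of the 390 regions (29.8% over all genes) and the Zic core in 19.2% (16.7%). The Zic core was present in 6 of the 17 lower regions (35.3%, 17.3 to 58.7, against 18.1% of the lower regions of all genes) and in 8 of the 24 higher (33.3%, 17.97 to 53.3, against 16.1%). CAGCTG was present in 5 of the 17 (29.4%, against 30.5%) and in 5 of the 24 (20.8%, against 29.8%). Neither form of the REST element, nor TTGGC, any 5 bases, GCCAA, the palindrome of nuclear factor I, was found around a shared summit.

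The 52 shared regions of the Cav2 pores, which open presynaptic calcium entry, had a median log2 ratio of 0.17 (0.04 to 0.30), an interval that holds the 0.07 of all genes. Cacna1a, the P/Q-type pore whose loss causes ataxia, had 26 WT, 18 het and 30 mutant peaks, of which 2 WT peaks lacked a mutant peak and 5 mutant peaks a WT peak. Its 24 shared regions had a median log2 ratio of 0.22 (−0.02 to 0.34). Cacna1e had 31 WT, 22 het and 41 mutant peaks, with 8 WT and 16 mutant peaks unshared, and the median over 23 shared regions was 0.13 (−0.02 to 0.22). Its tallest start site had 1.01 RPM in WT, 1.68 in het and 0.862 in mutant (ratio 0.852, 0.556 to 1.30). The strongest WT peak in the set with no mutant peak within 300 bp was intronic in Cacna1e (chr1:154822271-154822553, 0.417 RPM in WT and 0.679 in het). Cacna1b had 8, 4 and 9 peaks.

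Among the L-type and T-type pores, neither median departed from that of all genes beyond its interval. The L-type pores, which couple depolarization to gene expression in neurons, had a median log2 ratio of 0.04 (−0.02 to 0.16) over 70 regions. Cacna1c held 55 WT, 40 het and 64 mutant peaks over 609 kb, with 11 WT and 17 mutant peaks unshared and 1 region past 1.5-fold in each direction among 39. Cacna1d had 28, 26 and 31 peaks. Its region at chr14:30479178-30480078 was among the tallest of the set and lies 22 bp from a start site of another gene, with 1.35 RPM in WT, 3.14 in het and 1.51 in mutant. At chr14:30217269-30217420 a mutant peak of 0.372 RPM had no WT or het peak within 300 bp. Cacna1s had 12, 9 and 11 peaks. The T-type pores, which open near rest and support burst firing, had 0.03 (−0.19 to 0.22) over 21 regions. Cacna1g had 13, 11 and 15 peaks, Cacna1h 7, 5 and 8, and Cacna1i 11, 7 and 10.

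The alpha2delta genes, whose products traffic calcium channels to the terminal and bind gabapentin in the case of Cacna2d1 and Cacna2d2, held the most peaks of any class, 126 in WT, 99 in het and 148 in mutant. Their 103 shared regions had a median log2 ratio of 0.02 (−0.07 to 0.10). Cacna2d1 (chr5:15934691-16374511, plus strand) had 38 WT, 27 het and 38 mutant peaks, with 7 unshared in each direction. Over its 31 shared regions the median was −0.07 (−0.17 to 0.11), with 17 regions below 0 and 14 above. Over all genes, 26119 of 62275 were below 0 and 36156 above. Past 1.5-fold, 1 region of Cacna2d1 was lower and 0 were higher (2.97% and 6.76% over all genes). Its tall intronic regions were close in the 2 lists, such as chr5:16265361-16265877 with 1.33 RPM in WT, 3.59 in het and 1.37 in mutant, or chr5:16086966-16087649 with 1.17, 3.01 and 1.02 (ratio 0.870, 0.588 to 1.29). The strongest mutant peaks with no WT peak within 300 bp included 2 in Cacna2d1, at chr5:15962028-15962136 with 0.372 RPM and at chr5:16009930-16010115 with 0.333. Cacna2d1 and Cacna1e are singled out because they stand in the study's expression lists. Cacna2d1 is in the RNA-seq list of genes lower in Chd7-deficient GNPs, and Cacna1e is not. Both are in a microarray list from cultured postmitotic granule neurons, of genes lower on Chd7 loss and on topoisomerase II inhibition. For Cacna2d1 the study also reports lower expression by qRT-PCR in such neurons under each of these conditions. These lists were chosen on expression and are not independent of the study's own question.

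Cacna2d3, the longest gene of the set at 817 kb, held 58 WT, 48 het and 74 mutant peaks, with 11 WT and 20 mutant peaks unshared. Its 45 shared regions had a median log2 ratio of 0.09 (−0.06 to 0.24), with 3 past 1.5-fold lower and 4 higher. The tallest, in an intron at chr14:29323899-29324882, had 1.41 RPM in WT, 3.52 in het and 1.31 in mutant. A region at chr14:29232076-29232475 had 0.298 RPM in WT and 0.323 in het and no mutant peak within 300 bp. Cacna2d2, the gene of the ducky mouse, had 18, 13 and 22 peaks and a median of 0.10 (−0.02 to 0.40) over 15 regions. Cacna2d4 had 12, 11 and 14 peaks. Of its 12 shared regions, 9 were below 0 (26119 of 62275 over all genes) and 2 past 1.5-fold lower (2.97% over all genes).

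The calcium beta genes, whose products bring alpha1 to the membrane, gave the highest of the 8 class medians, 0.22 (0.10 to 0.34) over 39 shared regions. The interval of a median takes the regions of 1 pooled list for each genotype as independent. It is not their spread, which ran from −0.52 to 1.12 here, and it does not cover differences between pools or the choice of the highest class. Within the class, Cacnb2 had 0.33 (0.17 to 0.42) over 16 regions and 14 of the 16 above 0 (36156 of 62275 over all genes). Cacnb2 had 25 WT, 18 het and 30 mutant peaks. Cacnb4, mutated in the lethargic mouse, had 26, 17 and 29 peaks and a median of 0.19 (−0.02 to 0.35) over 17 regions. Cacnb1 and Cacnb3 had 3 WT peaks each. Among the gamma genes, Cacng2, which encodes the TARP stargazin, had 21, 11 and 20 peaks and a median of −0.05 (−0.30 to 0.35) over 14 regions, and its start site had 0.615 RPM in WT, 1.26 in het and 0.784 in mutant. Cacng1, Cacng3, Cacng4 and Cacng5 had 3, 7, 11 and 7 WT peaks. The class median for gamma was −0.02 (−0.11 to 0.19) over 36 regions.

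The sodium alpha genes had a median log2 ratio of 0.02 (−0.14 to 0.16) over 59 shared regions, with 5 past 1.5-fold lower (8.47%, against 2.97% over all genes) and 5 higher (8.47%, against 6.76%). Scn2a (chr2:65620771-65767447, plus strand) had its tallest regions at nearly equal heights in the 2 lists. Its intronic region at chr2:65690014-65691125, the tallest WT peak of the set, had 1.61 RPM in WT, 3.56 in het and 1.63 in mutant, a ratio of 1.01 (0.736 to 1.39), and its tallest start site had a ratio of 1.13 (0.822 to 1.55). None of its 7 shared regions passed 1.5-fold. Scn9a lacked a mutant peak within 300 bp of a WT peak of 0.337 RPM at chr2:66599541-66599778, and its start site had 0.952 RPM in WT, 2.20 in het and 1.20 in mutant (ratio 1.25, 0.846 to 1.87). Of the sodium beta genes, Scn2b, Scn3b and Scn4b had 3, 2 and 3 WT peaks, and the 10 shared regions of the class had a median of −0.01 (−0.25 to 0.40).

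**Figure D5:**
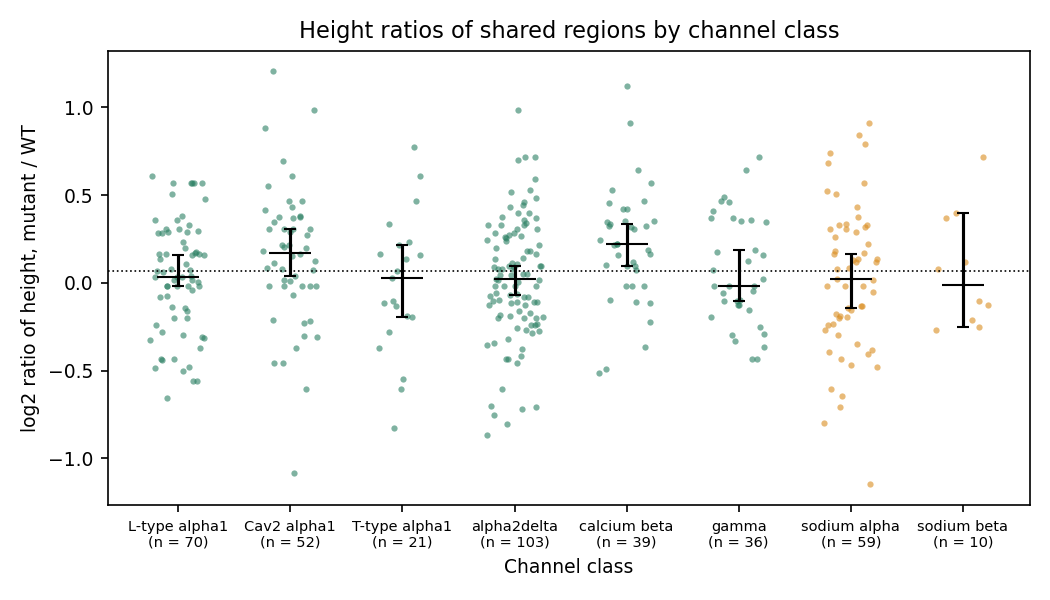
Log2 ratio of mutant to WT height for each shared region, by channel class, with the class median and its 95% interval over regions as a bar and the median over all genes as a dotted line. Class medians run from −0.02 for gamma to 0.22 for calcium beta, and the bars do not cover differences between pools.

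A further list held 18 genes that work with these channels, among them ankyrins and cell adhesion molecules of the axon initial segment, calmodulins, intracellular fibroblast growth factors, the leak channel Nalcn with its partners, and Rest. A start-site peak was found for 17 in WT (70.8% over all autosomal protein-coding genes), for 18 in het (68.6%) and for 18 in mutant (71.6%). Fgf11 was the one without in WT. Of the 376 WT peaks of the listed genes, 20.7% had no mutant peak (18.7% over all genes), and of their 438 mutant peaks 29.5% had no WT peak (26.9%). Their 276 shared regions had a median log2 ratio of 0.06, with 7 past 1.5-fold lower and 16 higher, where 2.97% and 6.76% of the regions of all genes were.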

How the data were processed

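The 8 ATAC-seq libraries were deposited as 3 peak lists, 1 for each genotype, which hold the values of pooled libraries and none of a single one. Per the labels, the submitters' processing notes name Trim Galore 0.4.1, STAR 2.5.0b, Bowtie 1.0.0, Picard 1.139 and the build mm10, and, per the file headers, the authors called narrow peaks with MACS2 2.1.0.20150731 without a control at a q-value cutoff of 0.05, on alignments from folders named for STAR (WT and mutant) or bowtie (het). The het run shifted tags by −100 bp and extended them to 200 bp. The deposited pileup is an unscaled signal, the number of overlapping fragments at the summit. The deposited fold enrichment is the ratio of that pileup to the authors' local background from MACS2. The deposited −log10 q is the peak's significance as adjusted by the authors' MACS2 run.

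From these lists, peaks were assigned to the GENCODE M21 genes whose window (5 kb upstream, 1 kb downstream) they overlapped. Peaks were matched by an overlap of at least 1 bp, and regions formed by joining peaks of the 3 lists within 300 bp. Heights are pileup for each 1000000 filtered tags, and ratios use the tallest peak of each list in a region. Shares carry Wilson 95% intervals and single ratios exact binomial 95% intervals, both for counting error only. Medians carry order-statistic 95% intervals of the median, with regions taken as independent, which are narrower than the spread of single regions. No test between genotypes was run. Members, lists and tests were chosen with earlier results of these data known. Genes named with values were those in the study's expression lists, those known from cerebellar mutants or granule neurons, the extremes of peak density, the 5 largest falls and rises among regions with −log10 q of 10 or more, the 3 strongest unmatched peaks in each direction and genes without a start-site peak. Other regions, among them the tallest WT peaks, were chosen after their values were seen. Motifs were searched on both strands, TTGGC, any 5 bases, GCCAA being present in 0.0365% of all RefSeq promoters. Promoter entries were missing for Cacna1a, Cacna1g, Cacna1h, Cacna2d4, Cacng1, Cacng4, Scn3a and Scn3b, among others. Some members are counted in the totals but not reported here by name. Scripts were tested on simulated peaks and run with Python 3.11.15, pandas 2.3.3, numpy 2.4.6, scipy 1.17.1, pysam 0.24.0, samtools 1.23.1 and bedtools 2.31.1.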

Additional observations from a re-analysis of the deposited data

How the results depend on the processing

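The share of WT peaks with no mutant peak, 21.4% as reported, was 32.0% when a 50% reciprocal overlap was required, 18.05% when any peak within 300 bp counted, 6.96% for WT peaks with −log10 q of 5 or more and 15.1% when both lists were held to that limit. The share of mutant peaks with no WT peak, 27.3%, became 40.4%, 23.06%, 9.64% and 23.10% in the same order. The share of WT peaks with a het peak, 66.5%, became 55.5% with the reciprocal overlap, 85.8% for WT peaks at the limit and 77.4% with both lists at it. The share of mutant peaks with a het peak, 61.4%, became 47.4% with the reciprocal overlap, 66.2% within 300 bp, 81.2% at the limit and 71.6% with both at it. The number of regions at least 1.5-fold lower in mutant, 17, was 7 when fold enrichment replaced pileup and 11 among regions with −log10 q of 10 or more. The median log2 ratio of the channel genes, 0.08, was 0.0085 after centring on all shared regions. The numbers of genes with a start-site peak and of regions at least 1.5-fold higher stayed within 1.5 times the reported number under every alternative run. No paired analysis was possible because each list pools the libraries of its genotype, and for the same reason no replicate could be left out. Tags of 107 bp against 76 bp cannot be told apart from WT against mutant.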
